A study of Mus musculus with 6 samples.

Results

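Target genes of p53 were examined in mouse embryonic fibroblasts (MEFs) that lacked the histone variant H2AX. The members were 32 named genes that are widely described as activated by p53, and each was read from the array probe set whose annotation gave that gene symbol alone. Where a gene had more than 1 such probe set, the one with the highest mean over the 6 arrays was taken. In all, 31 of the 32 members were measured, among 19938 measured genes. Gdf15, a secreted stress cytokine, is not analysed here.

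The study asked which transcripts differ when H2AX, a histone that is phosphorylated around DNA double-strand breaks, is missing. RNA was hybridised to 3 arrays of H2AX knockout (KO) MEFs, from H2AX mutant mice, and 3 arrays of wild-type MEFs. The general culture methods give the same medium for both. Neither the labels nor the array methods name a treatment or a damaging agent for these cells. No strain, embryo sex, passage number or method of immortalization is given in the sources used here, nor whether arrays of a genotype came from separate cultures or embryos. A legend of the study calls the replicates of each genotype independent without saying at which step they were separated. The p-values thus cover the spread among these arrays and no other source of variation. Values are log2 expression values as deposited, so that a difference of 1 is a 2-fold change.

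The p53 protein is a transcription factor that is held at low levels by its own target Mdm2 and released by DNA damage and other stress. Its targets halt the cell cycle, repair DNA, adjust metabolism and adhesion, or start cell death, and which of them respond depends on the cell and on the stress. H2AX is phosphorylated by ATM, the same kinase that acts on p53. Fibroblasts in culture generally respond to p53 with arrest or senescence more than with death.

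The p53 protein contacts DNA at pairs of a short half-site made of a run of purines, a core that opens with C and closes with G around A or T bases, and a run of pyrimidines. This consensus is its own reverse complement, so that a search covers both strands, and overlapping matches were allowed. RefSeq promoter windows of assembly GRCm38.p6, each 300 bases long with 250 of them before the annotated start, were matched by symbol for 23 of the 32 members. At least 1 half-site was found for 7 of these 23 members (30.4%), against 9.55% of the 27025 genes in the table. A gene can have several windows, and by window 8 of the 33 of members had a half-site, against 8.36% of all 32851 windows. None of the 23 had a pair of half-sites spaced by at most 13 bases, an arrangement found in 0.074% of all genes. Only exact matches to the consensus were counted, so that a pair with any mismatch was missed. By expression, half-sites were present for 4 of the 10 lower members with a window, for 1 of the 5 higher members and for 2 of the 7 members that did not pass the test. A match is a description of the letters and not a site of binding, and many p53 sites lie outside such a window. The stretches show which members carried the motif and how it varied, each 60 bases long, 5′ to 3′ on the strand of the gene, with the half-site in capitals. Aen also had a match and is not printed.
Ccng1: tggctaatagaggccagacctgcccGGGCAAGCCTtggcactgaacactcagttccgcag
Gadd45a: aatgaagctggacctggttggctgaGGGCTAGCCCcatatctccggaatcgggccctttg
Polk: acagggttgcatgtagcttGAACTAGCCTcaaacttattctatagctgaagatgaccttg
Sesn1: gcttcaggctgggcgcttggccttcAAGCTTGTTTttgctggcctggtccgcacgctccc
Ei24: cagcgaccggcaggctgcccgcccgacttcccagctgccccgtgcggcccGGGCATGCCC
Siva1: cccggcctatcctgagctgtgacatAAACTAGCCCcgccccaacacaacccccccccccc

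The Ccng1 stretch lies at chr11:40755437-40755496 on the minus strand, with its half-site at bases -185 to -176 from the outermost annotated start. That of Gadd45a lies at chr6:67037413-67037472 on the minus strand, with the half-site close to the start at -40 to -31. That of Polk lies at chr13:96519378-96519437 on the minus strand and that of Sesn1 at chr10:41887241-41887300 on the plus strand, both before an annotated start inside the gene. Their half-sites lie at -231 to -222 and at -173 to -164. The Ei24 stretch, at chr9:36797335-36797394 on the minus strand, ends just before the start, and its half-site covers -10 to -1. The Siva1 stretch lies at chr12:112644585-112644644 on the plus strand, with the half-site at -218 to -209. Ccng1, Gadd45a and Polk were lower in H2AX mutants, Sesn1 was higher, and Ei24 and Siva1 did not pass the test.

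The transcript of the targeted gene, H2ax, read 7.69, 7.77 and 7.67 on KO arrays 1 to 3, against 8.96, 9.18 and 9.00 on wild-type arrays 1 to 3. It was lower on every KO array, by a log2 fold change of -1.34 (SE, the standard error, 0.07, adjusted p = 5.8e-07, with every adjusted p in the text taken from limma unless said otherwise). The probe set still gave signal in KO cells, and the sources do not say whether its probes fall inside the deletion. The fibroblast marker Vim was high in both genotypes, between 13.12 and 13.14 on KO arrays and between 13.20 and 13.23 on wild-type arrays. Of the 15 fibroblast markers, however, 5 were higher in H2AX mutants (33.3%, against 18.4% of all genes) and 7 were lower (46.7%, against 15.0%). Thy1 differed by a log2 fold change of 4.03 and Dcn by -2.15. Fap read 4.38 to 4.54 on KO arrays and 6.80 to 7.22 on wild-type arrays, where 25% of all genes had mean levels below 4.98. The Y-linked genes Eif2s3y, Uty and Kdm5d were also lower, with log2 fold changes of -4.04, -3.73 and -2.88. Xist, the X-inactivation RNA, read 4.51 to 4.59 on KO arrays and 4.46 to 4.63 on wild-type arrays. The genotypes thus also differed in Y-linked transcripts, and effects of H2AX loss and of other differences between these cells cannot be told apart.

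Among the 31 measured p53 target genes, 12 were lower and 7 were higher in H2AX KO MEFs at an adjusted p under 0.05, and 12 did not pass. The lower members made up 38.7%, against 15.0% of all genes, and the higher members 22.6%, against 18.4% of all genes. Another fit dropped the 50% of all genes with the lowest mean over the 6 arrays. Its higher share was 15.4% of the 26 members then tested, against 31.0% of all genes. The lower share was 53.8% against 24.1%. That filter removed Perp, Ddb2 and Fbxw7 from the higher members. Eda2r stayed through its wild-type level, with means of 7.88 in wild-type and 5.60 in KO cells. These shares thus depend on the filter and are not a separate result. With all genes kept and at a fold change over 2 as well, 5 members were lower (Trp53i11, Eda2r, Plk3, Ccng1 and Slc19a2), where 3.18% of all genes were. Perp was the only member higher at that fold, where 2.12% of all genes were. The median log2 fold change of the members was -0.16, against 0.02 over all genes, and the median size of the change, without its sign, was 0.41 for the members and 0.13 for all genes. All 3 KO arrays lay below all 3 wild-type arrays for 14 members and above them for 8. Over all genes these shares were 19.5% and 25.3%. With 3 arrays against 3, an exact two-sided permutation test of 1 gene cannot go below 0.1, which is why calls were made with limma, which shares the variance across genes. In a one-way ANOVA that does not share it, 11 of the lower and 6 of the higher members passed. These were 35.5% and 19.4% of the members, against 10.9% and 12.8% of all genes. In RNA from whole cultures, fewer cells that express a gene and less of its RNA per cell cannot be told apart.

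**Figure D1:**
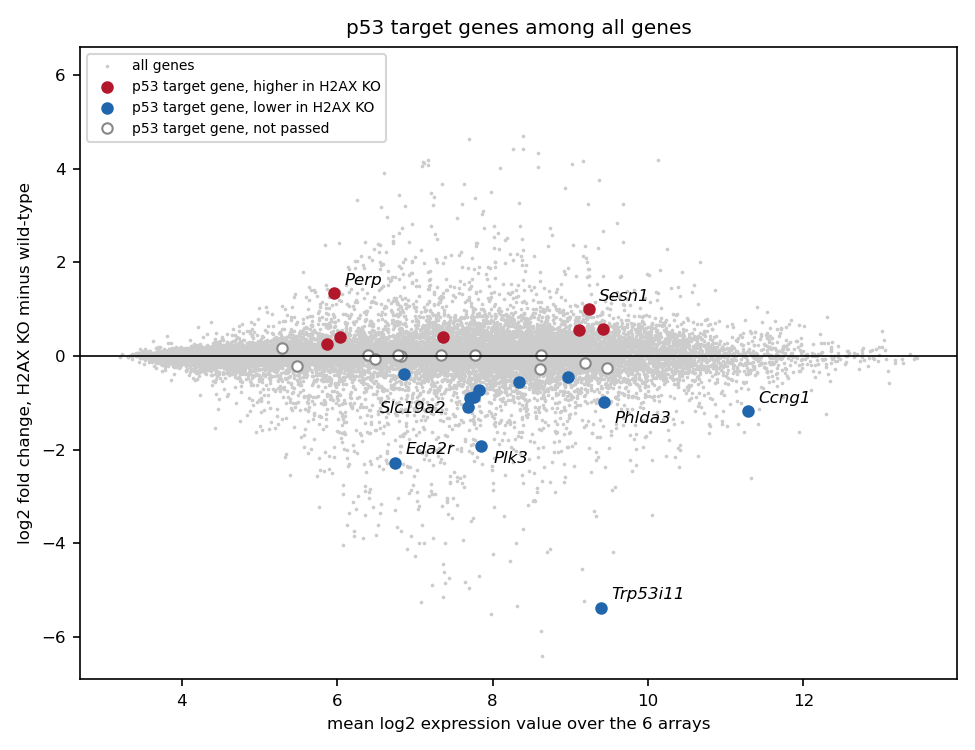
Each point is a gene, with its mean log2 expression value over the 6 arrays on the x axis and its log2 fold change, H2AX KO minus wild-type, on the y axis, where filled points are p53 target genes past an adjusted p of 0.05 (red, 7 higher; blue, 12 lower) and open points are the 12 that did not pass. Members lie on both sides of 0, and Trp53i11 at -5.37 stands far below the others.

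Genes of cell cycle and growth arrest included 11 measured members, with 5 lower, 2 higher and 4 that did not pass. The lower ones made up 45.5%, against 15.0% of all genes, and the higher ones 18.2%, against 18.4% of all genes. Plk3, a polo-like kinase activated by stress, had log2 values of 6.94, 6.81 and 6.90 on the KO arrays, against 8.70, 8.87 and 8.87 on the wild-type arrays. The KO arrays were tightly grouped and far from wild-type, with a log2 fold change of -1.93 (SE 0.07, adjusted p = 3.56e-08), or 3.81-fold lower. Ccng1 encodes cyclin G1, a classical p53 target that recruits a phosphatase to Mdm2. Its values were 10.82, 10.58 and 10.71 on KO arrays and 11.85, 11.89 and 11.89 on wild-type arrays. Ccng1 thus fell by 1.17 on the log2 scale (SE 0.07, adjusted p = 1.37e-06), which is 2.25-fold, with no overlap.

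Trp53inp1, a stress-induced nuclear protein that promotes arrest and autophagy, read 7.35, 7.00 and 7.43 in H2AX mutants, against 8.11, 8.26 and 8.13 in wild-type cells. KO replicate 2 was the lowest array, and all 3 KO arrays stayed below wild-type (log2 fold change -0.91, SE 0.11, adjusted p = 1.30e-04). Gadd45a, a sensor of genotoxic stress that acts at the G2 checkpoint and in DNA repair, gave 7.59, 7.31 and 7.50 on KO arrays and 8.07, 8.24 and 8.28 on wild-type arrays. Here too the genotypes were apart, and Gadd45a fell by 0.73 (SE 0.09, adjusted p = 1.43e-04). Zmat3, a zinc finger protein that binds RNA, read 8.13, 7.94 and 8.14 on KO arrays, against 8.46, 8.70 and 8.68 on wild-type arrays. Its decrease was smaller, at a log2 fold change of -0.54 (SE 0.09, adjusted p = 8.01e-04).

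The polo-like kinase Plk2 moved the other way from Plk3. It read 9.56, 9.20 and 9.40 in KO cells, against 8.79, 8.89 and 8.81 in wild-type cells, and rose by a log2 fold change of 0.55 (SE 0.09, adjusted p = 0.00102). Btg2, an antiproliferative gene that also recruits the deadenylation machinery of mRNA, was likewise higher. Its values were 7.70, 7.51 and 7.45 on KO arrays and 7.16, 7.20 and 7.11 on wild-type arrays, a log2 fold change of 0.40 (SE 0.08, adjusted p = 0.00268).

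Arrays of the genotypes overlapped for the other 4 genes of arrest. Sfn, which encodes the 14-3-3 sigma protein of the G2 checkpoint, read 6.68 to 7.05 on KO arrays and 6.69 to 6.92 on wild-type arrays, with a log2 fold change of 0.01 (95% interval -0.23 to 0.24). Rprm, the G2 arrest gene reprimo, read 6.36 to 6.44 on KO arrays and 6.33 to 6.45 on wild-type arrays, with an interval of -0.12 to 0.17. For these genes the intervals leave room only for changes below the fold of 2. Psrc1, which binds microtubules of the mitotic spindle, read 8.58 to 8.72 on KO arrays and 8.34 to 8.81 on wild-type arrays (95% interval -0.23 to 0.28). Ptprv, a receptor phosphatase that takes part in p53-dependent G1 arrest in mice, read 5.24 to 5.58 on KO arrays and 5.50 to 5.71 on wild-type arrays. Its log2 fold change was -0.21 (95% interval -0.42 to 0.01).

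**Figure D2:**
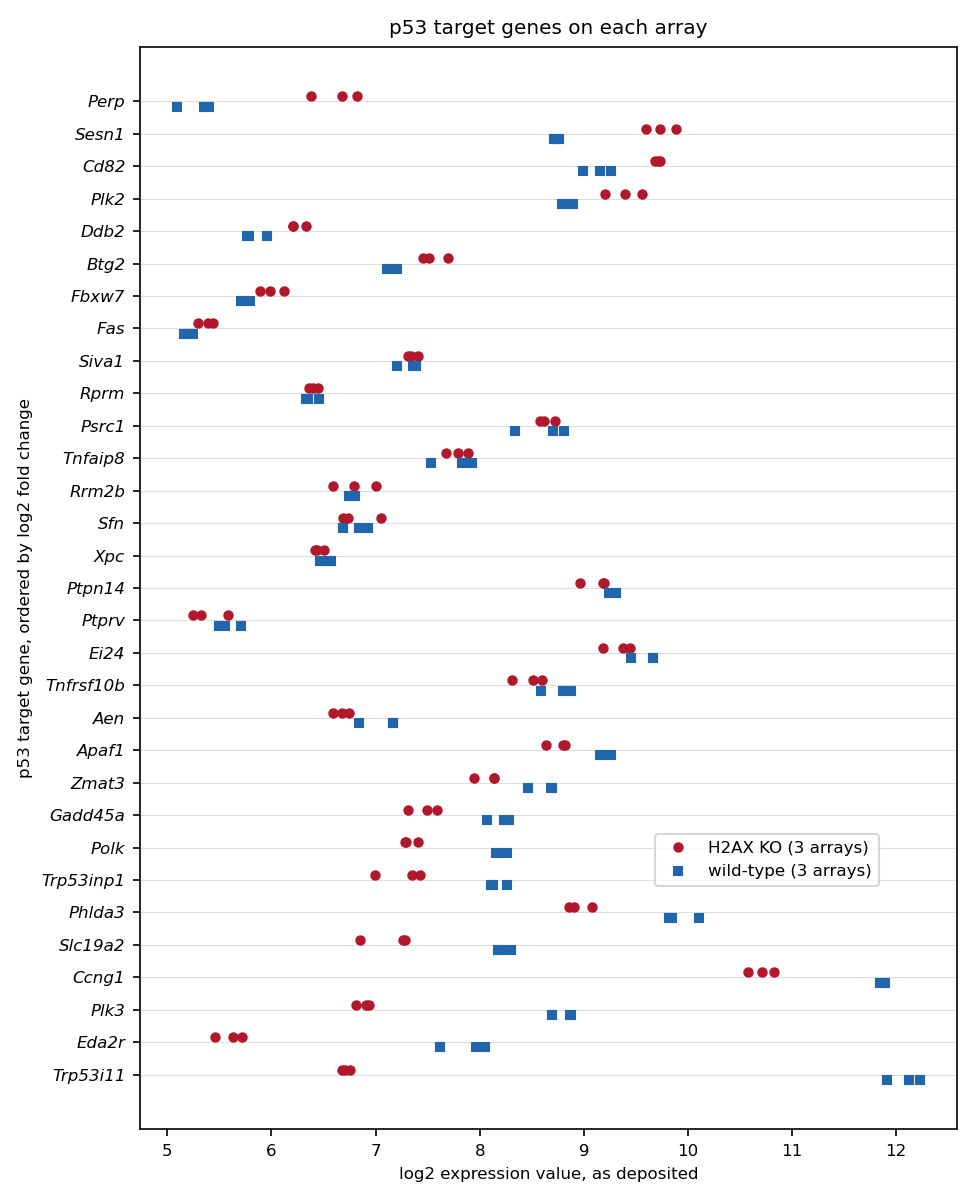
The log2 expression value of each of the 31 measured p53 target genes (rows, ordered by log2 fold change) is given on each of 3 H2AX KO arrays (red circles) and 3 wild-type arrays (blue squares). Perp and Sesn1 at the top and Trp53i11, Eda2r, Plk3 and Ccng1 at the bottom show gaps much wider than the spread within a genotype.

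Of the 11 genes of death receptors and apoptosis, 5 were lower, 1 was higher, and the other 5 missed the threshold. Lower members were 45.5%, against 15.0% of all genes, and higher members 9.09%, against 18.4% of all genes. The largest change of any member was in Trp53i11, a membrane protein gene named for its induction by p53. It read 6.76, 6.68 and 6.70 in H2AX mutants, against 11.91, 12.13 and 12.23 in wild-type cells. No other member showed a gap as wide, and Trp53i11 was 41.5-fold lower in KO cells (log2 fold change -5.37, SE 0.09, adjusted p = 2.25e-10). Only 3 of the 19938 genes had a lower log2 fold change.

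Eda2r, a receptor of the TNF family that binds ectodysplasin A2, followed at 5.63, 5.72 and 5.46 on KO arrays, against 7.62, 8.05 and 7.97 on wild-type arrays. Wild-type replicate 1 was the lowest of its genotype and still well above every KO array, with a log2 fold change of -2.28 (SE 0.12, adjusted p = 2.79e-07). Eda2r lies on the X chromosome, and the Y-linked transcripts given above also differed between these cells, and their part in its change was not tested. Phlda3, a repressor of the survival kinase Akt, read 8.90, 9.07 and 8.85 in KO cells and 9.81, 9.85 and 10.10 in wild-type cells. Its log2 fold change was -0.98 (SE 0.09, adjusted p = 2.60e-05), just inside a fold of 2 at 1.97.

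Of the genes that act after mitochondrial release, Apaf1, the scaffold of the apoptosome, read 8.82, 8.64 and 8.80 on KO arrays, against 9.18, 9.26 and 9.15 on wild-type arrays. It fell by 0.44 on the log2 scale (SE 0.07, adjusted p = 8.71e-04), without overlap. Aen, a nuclease that degrades DNA in apoptosis, read 6.68, 6.59 and 6.74 in KO cells, against 6.84, 7.17 and 7.17 in wild-type cells. Wild-type replicate 1 lay close to the KO arrays, and the log2 fold change was -0.39 (SE 0.10, adjusted p = 0.0110). Without wild-type replicate 2 the adjusted p of Aen was 0.0548.

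Perp, a tetraspan membrane protein of p53-dependent apoptosis that is also a part of desmosomes, was the one member of this group that rose. It read 6.82, 6.38 and 6.68 on KO arrays, against 5.35, 5.09 and 5.40 on wild-type arrays. Every KO array was higher, with a log2 fold change of 1.35 (SE 0.12, adjusted p = 1.62e-05), or 2.55-fold. Because Perp is abundant in stratified epithelium, markers of epithelium and keratinocytes were examined beside it. Of 15 such markers 1 was higher by limma (6.67%, against 18.4% of all genes), which was Krt19 (log2 fold change 0.25, adjusted p = 0.0164). Decreases passed for 0 of them, against 15.0% of all genes. At an unadjusted p under 0.05 in the same test 2 markers were higher and 0 lower, where 4535 and 3597 of all 19938 genes were. Their summed level, as a log2 value, was 9.43 to 9.57 on KO arrays and 9.41 to 9.45 on wild-type arrays, so that the ranges overlapped. Their mean log2 value was 5.40 to 5.51 on KO arrays and 5.32 to 5.38 on wild-type arrays, without overlap. All 3 KO arrays lay above all 3 wild-type arrays for 6 of the 15 markers (40%, against 25.3% of all genes). They lay below them for 0, against 19.5% of all genes. The basal keratin Krt5 read 4.96 to 5.13 on KO arrays and 4.83 to 5.04 on wild-type arrays, and Epcam read 4.77 to 4.85 on KO arrays and 4.70 to 4.74 on wild-type arrays, where 25% of all genes had mean levels below 4.98.

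Members of the death group that did not pass included the death receptors themselves. Fas read 5.29 to 5.44 on KO arrays and 5.16 to 5.25 on wild-type arrays, with no overlap, and its log2 fold change of 0.17 had a 95% interval of 0.03 to 0.32 (adjusted p = 0.0722). Tnfrsf10b, the receptor of the death ligand TRAIL, read 8.31 to 8.60 on KO arrays and 8.59 to 8.88 on wild-type arrays. Its log2 fold change was -0.28 (95% interval -0.50 to -0.06, adjusted p = 0.0539). Ei24, a membrane protein of the endoplasmic reticulum, lay nearest to the threshold, with 9.19 to 9.45 in KO cells and 9.46 to 9.67 in wild-type cells (log2 fold change -0.26, 95% interval -0.46 to -0.06, adjusted p = 0.0504). These 3 genes passed an unadjusted p of 0.05 and missed the adjusted one, and each of them passed in some alternative settings, among them quantile normalization and a fit without KO replicate 1.

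Siva1, an adaptor of death receptor signals, read 7.31 to 7.40 on KO arrays and 7.20 to 7.39 on wild-type arrays (95% interval -0.13 to 0.19). Tnfaip8, which opposes apoptosis, read 7.68 to 7.88 on KO arrays and 7.53 to 7.93 on wild-type arrays (95% interval -0.21 to 0.25). Probe sets of Tnfaip8 disagreed, since a dimmer one read 4.84 to 4.95 on KO arrays and 5.06 to 5.25 on wild-type arrays, and differed by -0.27 on the log2 scale (adjusted p = 0.0171 over probe sets). Sfn, Siva1 and Fbxw7 also had a second probe set, and none of these passed.

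**Figure D3:**
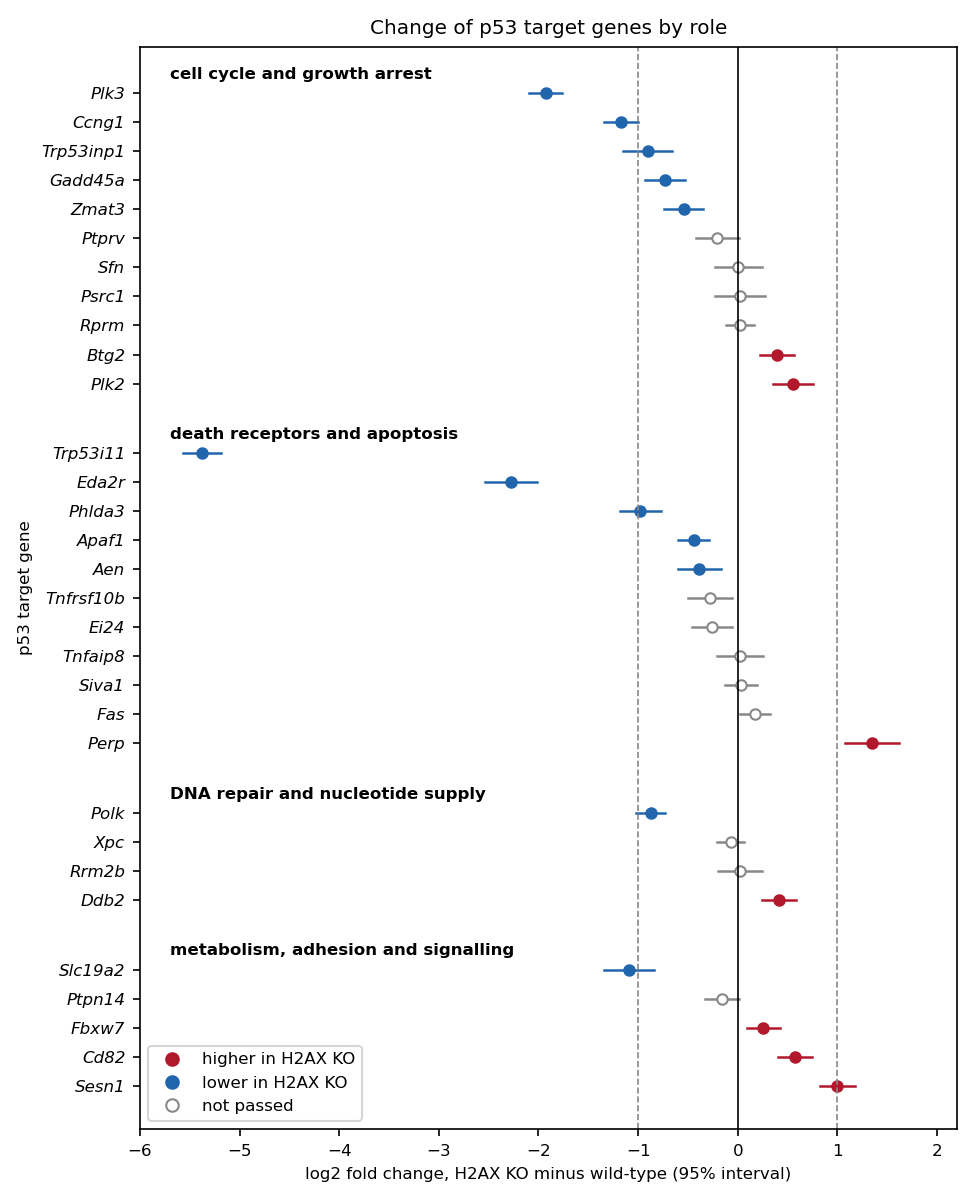
Log2 fold change, H2AX KO minus wild-type, of the 31 measured p53 target genes grouped by role, with its 95% interval from 3 arrays a genotype (points: red higher, blue lower, open not passed; dashed lines: a fold of 2). Lower and higher members occur in each of the 4 groups, and the decreases of Trp53i11, Eda2r and Plk3 exceed the increase of Perp.

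Genes of DNA repair and nucleotide supply had 4 members, of which 1 was lower, 1 was higher and 2 did not pass. This was 25% in either direction, against 15.0% lower and 18.4% higher over all genes. Polk, the translesion DNA polymerase kappa, read 7.41, 7.29 and 7.28 in H2AX mutants, against 8.15, 8.27 and 8.18 in wild-type cells. The arrays of each genotype lay within a narrow range, and Polk fell by 0.88 (SE 0.07, adjusted p = 5.35e-06). Ddb2 and Xpc both recognize damage for nucleotide excision repair. Ddb2 read 6.33, 6.20 and 6.21 on KO arrays and 5.78, 5.76 and 5.96 on wild-type arrays, higher by a log2 fold change of 0.41 (SE 0.08, adjusted p = 0.00199). Xpc read 6.42 to 6.50 on KO arrays and 6.47 to 6.57 on wild-type arrays, with an interval of -0.21 to 0.07. Rrm2b, the p53-inducible subunit of ribonucleotide reductase, read 6.59 to 7.01 on KO arrays, a range that held all 3 wild-type arrays at 6.74 to 6.80 (95% interval -0.20 to 0.24).

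In the group of metabolism, adhesion and signalling, 3 of 5 members were higher, 1 was lower and 1 did not pass. Over all genes 18.4% were higher and 15.0% lower, and so small a group gives only a rough share. Sesn1, a sestrin that restrains mTORC1 and limits oxidative stress, read 9.88, 9.60 and 9.73 in KO cells, against 8.76, 8.74 and 8.71 in wild-type cells. The wild-type arrays lay close together, and Sesn1 rose by a log2 fold change of 0.998 (SE 0.08, adjusted p = 7.06e-06). This was just inside a fold of 2 at 1.998, and with median centring the log2 fold change was 1.04. Cd82, a tetraspanin that limits cell migration, read 9.71, 9.68 and 9.73 on KO arrays and 8.99, 9.15 and 9.26 on wild-type arrays. Here the KO arrays were the uniform ones, and the log2 fold change was 0.58 (SE 0.08, adjusted p = 2.76e-04). Fbxw7, the substrate receptor of a ubiquitin ligase that degrades cyclin E and Myc, read 5.99, 5.89 and 6.12 on KO arrays, against 5.79, 5.71 and 5.72 on wild-type arrays. Its rise was the smallest called, at a log2 fold change of 0.25 (SE 0.07, adjusted p = 0.0230), and its adjusted p was 0.109 without KO replicate 3, 0.0834 without wild-type replicate 2 and 0.0685 without wild-type replicate 3.

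Slc19a2, the thiamine transporter, was the lower member of the same group. It read 7.27, 6.85 and 7.28 on KO arrays, against 8.20, 8.30 and 8.18 on wild-type arrays. Despite the lower value of KO replicate 2 the genotypes were apart, with a log2 fold change of -1.09 (SE 0.11, adjusted p = 4.17e-05), or 2.13-fold. Ptpn14, a phosphatase that restrains the coactivator Yap, read 8.96 to 9.19 on KO arrays and 9.24 to 9.31 on wild-type arrays. The ranges did not overlap, yet the log2 fold change of -0.16 did not pass (95% interval -0.33 to 0.01, adjusted p = 0.157).

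Other genes commonly listed as p53 targets were counted in the same way, as a list of 32 of which 27 were measured. Decreases passed for 10 of these (37.0%, against 15.0% of all genes) and increases for 5 (18.5%, against 18.4% of all genes), while 12 did not pass, and the median log2 fold change was -0.13. In the one-way ANOVA 7 were lower (25.9%, against 10.9% of all genes) and 4 were higher (14.8%, against 12.8%). The largest decrease was in Dusp4, a phosphatase that inactivates MAP kinases, with 5.26, 5.30 and 5.63 on KO arrays and 9.28, 9.48 and 9.41 on wild-type arrays. The gap was wider than that of any p53 target gene above except Trp53i11 (log2 fold change -3.99, SE 0.10, adjusted p = 3.33e-09). Ak1, an adenylate kinase, read 7.96, 8.14 and 8.09 on KO arrays, against 9.88, 9.96 and 10.13 on wild-type arrays (log2 fold change -1.93, adjusted p = 8.32e-08). The largest increases were in Ckap2, a spindle protein, with a log2 difference of 0.74 (adjusted p = 1.97e-04) and in Lif, a cytokine of the interleukin-6 family, at 0.48 (adjusted p = 1.48e-04). Cdkn1a and Bax are among those not analysed here.

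Mdm2, at once a p53 target and the ubiquitin ligase that removes p53, read 9.12, 8.44 and 9.00 on KO arrays, against 9.49, 9.66 and 9.60 on wild-type arrays. KO replicate 2 stood below the other KO arrays, which still lay below wild-type. Its log2 fold change was -0.73 (SE 0.15, adjusted p = 0.00437), and it did not pass in the one-way ANOVA that the methods use (adjusted p = 0.0917 over all genes).

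Regulators of p53 were counted as well, as a list of 25 genes of which 22 were measured. Increases passed for 7 (31.8%, against 18.4% of all genes) and decreases for 4 (18.2%, against 15.0% of all genes), 11 did not pass, and the median log2 fold change was 0.15. Trp53 itself is among those not analysed here. Cdkn2a, whose locus encodes the inhibitor of Mdm2 called p19Arf and the cyclin kinase inhibitor p16Ink4a, read 10.16, 10.35 and 10.12 in KO cells. It read 8.28, 8.06 and 8.29 in wild-type cells, and the log2 fold change was 2.00 (SE 0.09, adjusted p = 9.58e-08). The probe set was named for the whole gene, so that its products cannot be told apart. Sirt1, which deacetylates p53, was higher by a log2 fold change of 0.72 (adjusted p = 5.43e-05). Mdm4, the partner of Mdm2 that masks the activating domain of p53, was lower at -0.53 (adjusted p = 2.22e-04), and so was Trp53bp2, which steers p53 to death genes, at -0.70 (adjusted p = 7.84e-05).

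**Figure D4:**
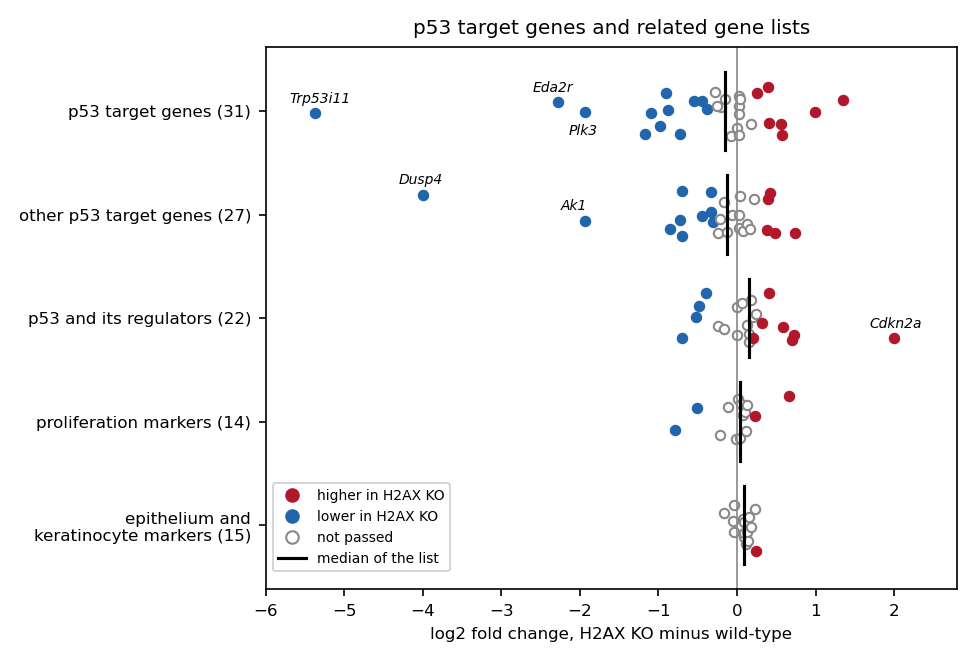
Log2 fold change, H2AX KO minus wild-type, of each measured gene (points: red higher, blue lower, open not passed; vertical jitter is arbitrary) in 5 lists with the number measured in parentheses, with the median of each list as a black bar. The medians lie at -0.16 for the p53 target genes, -0.13 for other p53 targets and 0.15 for p53 regulators, and every list of p53 genes holds members on both sides of 0.

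Transcripts of proliferation markers were also read, since several members act in the cell cycle. Growth itself was not measured on these arrays. Of 14 measured markers Mcm5 and Cdc20 rose, Rrm2 and E2f1 fell and 10 did not pass, with a median log2 fold change of 0.04. This was 14.3% in either direction, near the 18.4% higher and 15.0% lower over all genes. Mki67, the general marker of cycling cells, had a log2 fold change of 0.07 that did not pass. Its arrays did not overlap, at 10.854 to 10.949 for KO and 10.787 to 10.835 for wild-type. The summed level of the markers, as a log2 value, was 13.97 to 14.07 on KO arrays and 13.91 to 14.03 on wild-type arrays, so that the ranges overlapped.

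Members varied somewhat more between arrays of 1 genotype than genes in general did. Their median SD was 0.12 on the KO arrays and 0.10 on the wild-type arrays, against 0.08 over all genes in either genotype. The least even member was Slc19a2 among KO arrays (SD 0.25) and Psrc1 among wild-type arrays (SD 0.25). KO replicate 2 was the lowest KO array for 20 of the 31 members (64.5%), whereas it was so for 41.1% of all genes. Wild-type replicate 1 was the lowest wild-type array for 17 members (54.8%), against 47.2% of all genes. Without KO replicate 2, the same 12 members were lower (38.7%, against 14.4% of all genes) and the same 7 were higher (22.6%, against 19.8%).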

How the data were processed

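RNA of 3 H2AX KO and 3 wild-type MEF arrays was analysed, grouped by the genotype in the submitters' labels. The deposited log2 expression values of 35556 probe sets were made by the authors with Affymetrix Expression Console and normalized in Partek (version 6.6). How the background was corrected and the arrays were normalized is not given in the sources, and a difference in total RNA per cell is not visible after them. Array medians lay between 6.06 and 6.12. Gene names come from the annotation of the Mouse Gene 1.0 ST version that matched the probe set identifiers, whereas version 2.0 stands in the methods. Of 23410 annotated probe sets 21789 had 1 symbol, which gave 19938 genes; those with several symbols (1621) and those not listed (12146) were left out. Symbols were updated through a RefSeq gene table of GRCm38.p6, in which 21698 of these probe sets had a match.

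Genotypes were compared with limma (version 3.58.1, under R version 4.3.3) by lmFit and eBayes over all 6 arrays with no covariate, and p-values were adjusted over all genes by Benjamini-Hochberg and read at 0.05. The script was tested on simulated data. With so few arrays the precision of each value is limited. Members and gene lists were chosen with earlier results of these arrays known, so that counts describe them and no set test was run. All members are named. In the lists of other targets and of regulators, the 2 largest rises and falls that passed, Mdm2 and Cdkn2a are named, and other genes named were chosen after their values were seen. Same-numbered arrays did not deviate together between the genotypes. Some differently numbered ones did, with correlations of deviations of 0.32 for KO replicate 2 with wild-type replicate 1 and 0.23 for KO replicate 1 with wild-type replicate 2. No 2 arrays of a genotype shared more than 0.0872% of their values. Alternatives were a replicate block, leaving out each array, one-way ANOVA, another variance prior, quantile normalization, median centring, dropping the 50% of genes whose mean was lowest, averaging the probe sets of a gene, array weights and a fold over 2. Promoter sequences are those of RefSeq.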

Additional observations from a re-analysis of the deposited data

How the results depend on the processing

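Of the 19 members called, 15 were tested and kept their call in all 14 settings that refit the comparison, and none changed direction. Perp and Ddb2 kept it wherever they were tested, but they and Fbxw7 were not tested with the 50% of genes of lowest mean left out. Aen was lost in the one-way ANOVA (adjusted p = 0.0976) and without wild-type replicate 2, and Fbxw7 in the ANOVA and without KO replicate 3, wild-type replicate 2 or wild-type replicate 3. Among members not called, Fas, Tnfrsf10b, Ei24 and Ptprv passed in some settings. Leaving out each array gave 6 to 8 higher and 11 to 14 lower members. The higher share was 19.4% to 25.8%, against 14.3% to 19.8% of all genes. The lower share was 35.5% to 45.2%, against 11.9% to 14.7% of all genes. With a fold over 2 as well, 1 member was higher and 5 were lower, 0 other p53 targets were higher and 2 were lower, 1 regulator was higher and 0 were lower, and 422 genes were higher and 634 lower over all. With the 50% of genes of lowest mean left out, 4 of 26 members tested were higher (15.4%, against 31.0% of all genes) and 14 were lower (53.8%, against 24.1%). Of 20 other targets 2 were higher and 9 lower, and of all 9969 genes left 3095 were higher and 2399 lower. With a replicate block, 7 members were higher and 12 lower, and 3170 and 2640 of all genes, where the numbers do not pair the arrays (correlations of deviations -0.29, -0.24 and 0.08). Changes near 0 turned sign: Sfn to -0.093 and Psrc1 to -0.0537 with array weights, Siva1 to -0.0392 with the mean of probe sets, and Tnfaip8 to -0.122 with that mean and -0.0156 with array weights. Over single arrays left out, the log2 fold change spanned -0.108 to 0.0749 for Sfn, -0.117 to 0.118 for Psrc1, -0.0257 to 0.0687 for Siva1, -0.0931 to 0.105 for Tnfaip8 and -0.084 to 0.125 for Rrm2b. Array weights rest largely on KO replicate 3 (weight 6.17), and their estimation stopped before it converged. Medians of all genes moved by less than 0.1 on the log2 scale under any scaling.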
